A study of Mus musculus with 9 samples.

Results

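Histone genes were examined by gene expression in the mouse hippocampus after a high-methionine diet, alone or followed by betaine. The genes were chosen by name: protein-coding genes whose symbol begins with Hist1h to Hist4h, H2af, H1f or H3f3. This rule took 82 genes of the 22046 protein-coding genes listed, of which 67 carry a Hist name and are called replication-dependent here, and 15 are variant histone genes (H2af, H1f and H3f3 names). The rule used no measured value.

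Total RNA of the hippocampus was sequenced in 9 libraries, 3 per group. Con mice were kept on standard food. HMD mice received 8 weeks of food rich in methionine, the dietary source of homocysteine. Bet+HMD mice had the same high-methionine diet for 8 weeks and then 2.5% (w/v) betaine, a methyl donor that returns homocysteine to methionine, in the drinking water for 2 weeks; whether the diet went on in those 2 weeks is not clear. All mice were bought at 6 to 8 weeks of age, and the labels call them C57BL/6 males, whereas the methods of the study call them females and the strain entries of the 3 Bet+HMD samples read C57BL/6, C57BL/7 and C57BL/8. In all 9 libraries the Y-linked gene Ddx3y stood at 12.7 to 21.2 FPKM (fragments per kilobase of gene length, scaled to library size). Xist, the RNA that silences an X chromosome in females, did not exceed 0.0449 FPKM.

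Between 16031464 and 18291952 reads were assigned to genes per library. The Bet+HMD libraries are in the later of 2 deposited tables only, whereas the Con and HMD libraries are in both, so betaine and a difference in how these libraries were made cannot be told apart, and 48.3% of all genes tested differed between Bet+HMD and HMD. As described, the Bet+HMD mice also had 2 further weeks that no group without betaine had, and these cannot be told apart from betaine either. The 7 neuronal and hippocampal markers looked at all had a mean of at least 1 FPKM and summed to 680 to 845 FPKM per library, most of it Camk2a. Against HMD, Prox1, Wfs1, Neurod6 and Camk2a did not pass the test used below, whereas Bet+HMD was lower in Spink8 (log2 fold change -1.20, limma adjusted p = 0.000806) and Fibcd1 (-0.80, adjusted p = 0.000893) and higher in Rbfox3 (0.61, adjusted p = 0.00141). A list of 6 markers of the thalamus, a neighbouring region, summed to 24.7 to 70.5 FPKM in HMD, 15.3 to 18.8 in Con and 18.3 to 20.05 in Bet+HMD.

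Histones are the proteins around which DNA is wound: H2A, H2B, H3 and H4 form the core of the nucleosome, and H1, the linker histone, binds where the DNA enters and leaves it. Most replication-dependent genes lie in clusters, have no introns and are transcribed mainly when a cell copies its DNA. Their mRNAs end in a short stem-loop, bound by Slbp, in place of a poly(A) tail. Not every gene with a Hist name has this form: Hist1h2bc spans chr13:23684199-23692908 with a gene length of 1156 bases, so its annotated transcript is spliced. The variant genes have ordinary polyadenylated mRNAs that are made throughout the life of a cell, and in neurons, which do not divide, variants such as H3.3 and H2A.Z replace the replication-dependent histones over time. Some Hist genes are also known to yield polyadenylated mRNA in cells that have stopped dividing.

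The stem-loop is shown first, since it was far more frequent in Hist than in variant genes. The histone stem-loop was searched on the sense strand of the GENCODE M21 transcripts as a pattern in which the 2 middle bases of each arm and the second and last bases of the loop could be any base, and the other letters were those shared by the sequences printed here. It occurred in 46 of the 67 Hist genes (68.7%), in 1 of the 15 variant genes and in 0.621% of 21901 protein-coding genes, the histone genes included. Its fixed letters match the histone sequences printed here, so the share in Hist genes is partly set by the pattern. In the 16 bases below, capitals mark both arms of the stem and lower case the 4-base loop. The genes shown are the 4 expressed Hist genes with the letters, 1 further H4 gene that comes up below and the variant gene that has them, H2afx.
Hist3h2ba (H2B): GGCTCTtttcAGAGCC
Hist1h1c (H1): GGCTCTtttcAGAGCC
Hist3h2a (H2A): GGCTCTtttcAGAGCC
Hist1h4i (H4): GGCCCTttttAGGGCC
Hist2h4 (H4): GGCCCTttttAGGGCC
H2afx (H2A.X): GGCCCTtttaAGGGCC
The form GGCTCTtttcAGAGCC was shared by 26 Hist genes of the H1, H2A, H2B and H3 families. The form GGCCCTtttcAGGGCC was found in 7 genes, all of them H4, and the same arms with another loop in 3 further H4 genes and in H2afx.

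Most histone genes were at or near 0 in these libraries. A mean of at least 1 FPKM over the 9 samples was reached by 17 of the 82, which were 10 of the 15 variant genes and 7 of the 67 Hist genes. No read was assigned in any library to 22 genes, 19 Hist and 3 variant. A further 41 Hist genes had at least 1 read and a mean below 1 FPKM. The variant genes not expressed are those known from germ cells: H1fnt, H2afb1 and H2afb2 had no read, H1foo had 1 read and H2afb3 had 6.

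Per length, the variant genes carried most of the histone mRNA, with a summed mean of 205 FPKM against 61.1 FPKM for the 67 Hist genes. H3f3b, which encodes H3.3, was highest with a mean of 54.4 FPKM. It was followed by H1f0 (linker histone H1.0, typical of differentiated cells) at 41.4 and H2afz (H2A.Z) at 31.2 FPKM. The highest Hist genes were Hist3h2ba (H2B) at 16.5, Hist1h2bc (H2B) at 15.03 and Hist1h1c (linker histone H1.2) at 12.1 FPKM. Hist1h2bc and the variant H1fx, at 15.2 FPKM, differed by less than their spread between samples, as did H2afv (14.0), H2afx (13.2), H3f3a (13.0) and Hist1h1c. The next Hist genes were well below: Hist2h2be (H2B) at 3.62, Hist3h2a (H2A) at 3.48, Hist1h4i (H4) at 1.20 and Hist1h4k (H4) at 1.04 FPKM.

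**Figure D1:**
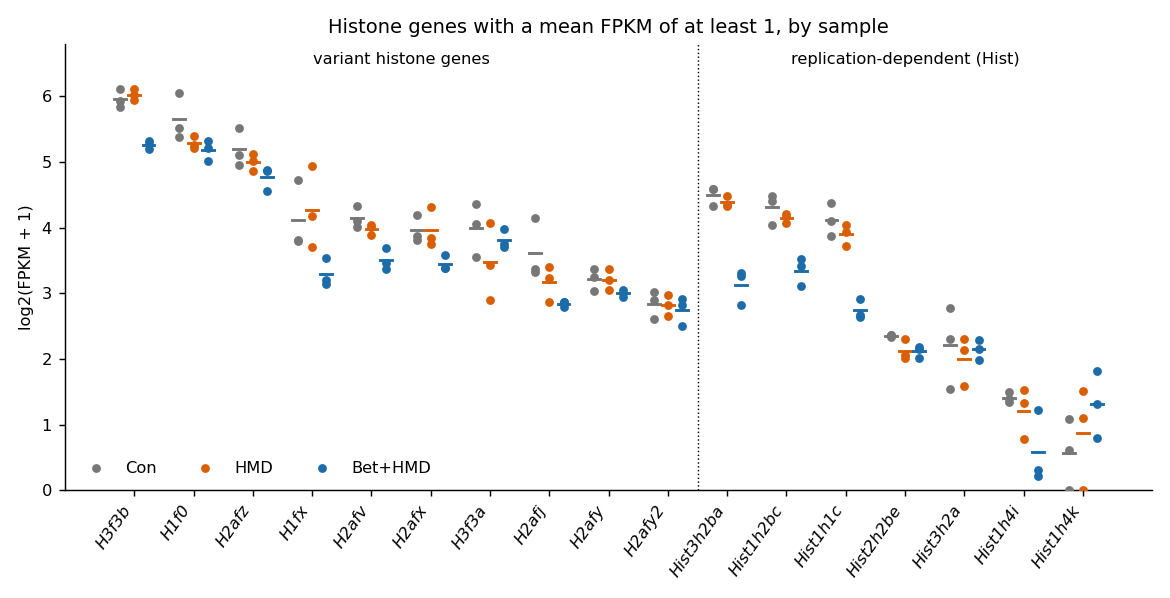
Level of each histone gene with a mean FPKM of at least 1, as log2(FPKM + 1) on the vertical axis, with 1 point per sample (Con grey, HMD orange, Bet+HMD blue) and a bar at the mean of the 3 samples. Hist3h2ba, Hist1h2bc, Hist1h1c and H3f3b show the Bet+HMD points below all 6 others, whereas Hist3h2a and H3f3a overlap.

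Within the Hist class the level was held by few genes. H2B genes took 62.8% of the summed Hist FPKM, H1 genes 20.5%, H2A genes 7.53%, H4 genes 6.72% and H3 genes 2.41%. By cluster, the 54 genes of Hist1 on chromosome 13 held 58.5%, and the 2 genes of Hist3 on chromosome 11 held 32.7%. None of the 12 Hist genes for H3 reached a mean of 1 FPKM, while the variant pair H3f3a and H3f3b together made up 97.5% ± 0.909 of H3 FPKM in Con (SD, n = 3), 98.3% ± 0.108 in HMD and 97.9% ± 0.599 in Bet+HMD.

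Levels of Hist genes differed by how their annotated transcripts end. In 23 Hist genes the annotation ends within 100 bases of the stem-loop, and in these the median of the mean levels was 0.0402 FPKM, the highest 0.437 FPKM (Hist1h4h), and 8 had no read. In 23 others the annotation continues for over 100 bases, from 108 to 4884; their median was 0.241 FPKM, the highest was Hist3h2ba, 4 reached 1 FPKM and 1 had no read. Summed over the 9 libraries the first set held 141 reads and the second 7207. The remaining 21 had no such letters in their annotated transcripts. Among them were Hist1h2bc, Hist2h2be and Hist1h4k, and 10 had no read. The annotated sequence after the stem-loop was 169 bases in Hist3h2ba, 330 in Hist1h4i, 840 in Hist1h1c and 1643 in Hist3h2a. A longer annotated transcript also offers more bases on which a read can be counted, and the sets differed in near-identical copies: the median share of 150-base windows also found in another gene was 45.1% in the first set, 9.36% in the second and 52.7% in the third. The part of both in the difference was not tested.

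**Figure D2:**
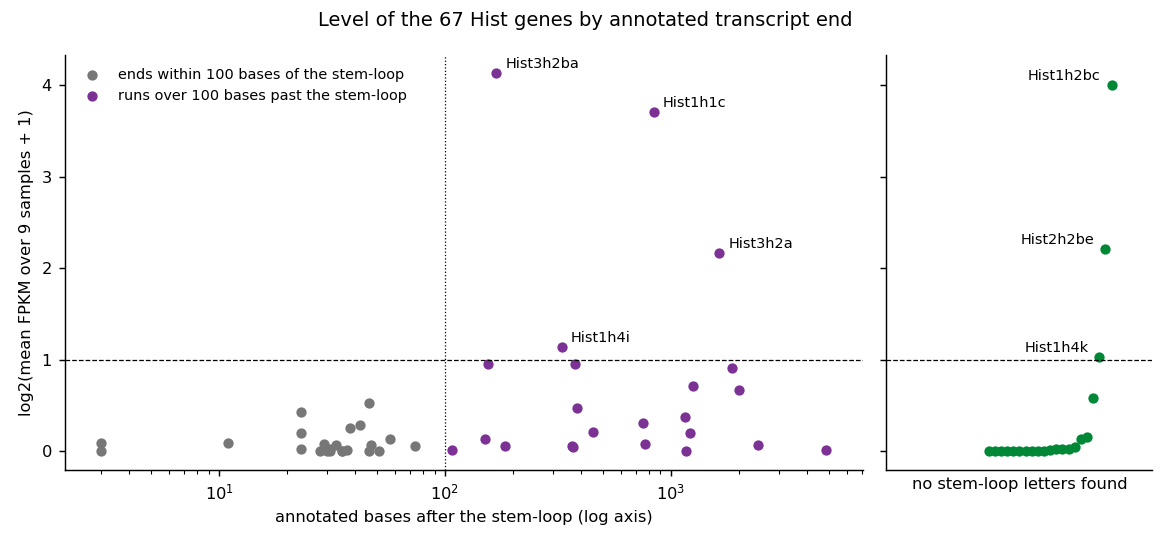
Level of the 67 Hist genes, as log2(mean FPKM over the 9 samples + 1), against the number of annotated bases after the stem-loop on a log axis (left) and for the 21 genes without the stem-loop letters (right). The dashed line is a mean of 1 FPKM and the dotted line is 100 bases; no gene left of the dotted line reaches 1 FPKM, and 4 genes right of it do.

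Low values of Hist genes are uncertain where copies are nearly identical. For the 22 histone genes without a read the median was 59.6% shared, and in 5 of them (Hist2h2aa1, Hist2h2aa2, Hist2h3c1, Hist2h3b and Hist2h2bb) every window was shared, whereas 7 of them shared none. For the 17 expressed genes the median was 2.08%. Among these, Hist1h4k (53.4%), Hist3h2a (28.0%), H2afz (22.7%), Hist1h2bc (17.4%) and H3f3a (16.3%) were the most affected, and their values depend on how reads that match several genes were treated, which is not stated. Most RNAs looked at that carry no poly(A) tail were also near 0: of 12 (such as Rmrp and Terc), 7 had no read in any library. The sum of the 12 was 0.186 to 5.22 FPKM. Most of it was Rn7sk, at 0.186 to 5.03 FPKM, the 1 gene of the list with a mean of at least 1 FPKM. Rmrp and Terc are also short, at 271 and 423 bases, and the part of length in these low values was not tested. The methods of the study name both depletion of ribosomal RNA and a kit for stranded mRNA libraries, and whether poly(A) RNA was selected is not stated.

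The first comparison asked whether the high-methionine diet alone changed histone gene expression. No histone gene passed the test, which was limma on log2(FPKM + 1) with Benjamini-Hochberg adjustment over the 13004 genes tested (adjusted p under 0.05). This also held for all genes, of which 0 (0.0%) were called and 588 had an unadjusted p under 0.05; none of the 17 histone genes tested did. The log2 fold change of HMD against Con was negative for 14 of the 17 histone genes, among them all 7 Hist genes. For comparison, it was negative for 6750 of all 13004 genes tested. Among protein-coding genes it was negative for 203 of 264 under 1000 bases and for 799 of 1214 of 1000 to 2000 bases. With only genes that reached 1 FPKM in both groups, a restriction made after the data were seen, it was negative for 13 of 16 and for 6 of 6 Hist genes. The median was -0.20 for Hist genes and -0.10 for variant genes, beside -0.01 for all genes tested. Short genes were lower as well, with a median of -0.20 for protein-coding genes under 1000 bases and -0.09 for those of 1000 to 2000 bases. Set against the median of their length class, 11 of the 17 histone genes were below it, and the median offset over all 17 was -0.07. In a tissue sample, fewer cells of a type and less mRNA per cell cannot be told apart.

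Of the 17 genes tested, H3f3a, the second gene for H3.3, differed most under the diet. It stood at 15.7, 10.8 and 19.5 FPKM in Con and at 9.84, 6.44 and 15.9 FPKM in HMD, and the groups overlapped. The log2 fold change was -0.52 (95% confidence interval -1.26 to 0.21, adjusted p = 0.979 by limma). H2afj (H2A.J) gave -0.45 (-1.02 to 0.12) and H1f0 -0.36 (-0.79 to 0.06), and in both the Con sample of replicate 3 was the highest, at 16.7 and 65.7 FPKM. Of the 17 genes, 2 did not overlap between the groups, both lower in HMD: Hist2h2be, at 4.03 to 4.17 FPKM in Con and 3.05 to 3.94 in HMD, and Hist2h3c2 (H3), at 0.968 to 1.72 and 0.813 to 0.903 FPKM. Hist2h3c2 reached the filter of 1 FPKM through Con alone (mean 1.37 beside 0.870 in HMD), so that its lower value in HMD is partly set by the filter. For comparison, 9.61% of all genes tested did not overlap, and 4.9% did not overlap and were lower in HMD. For H3f3b the interval of the log2 fold change ran from -0.21 to 0.34, and for Hist3h2ba from -0.38 to 0.16, so that changes of the size seen after betaine lay outside them.

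The second comparison asked what differed after betaine. Against HMD, 7 of the 16 histone genes tested fell in Bet+HMD and none rose, which is 43.8% beside 48.3% called in either direction and 25.5% called lower among the 13672 genes tested. They were 3 of 6 Hist genes and 4 of 10 variant genes. A change of 1 or more on the log2 scale was reached by 2 of them, Hist3h2ba and Hist1h1c, where 8.93% of all genes passed both thresholds. Against Con, 9 of 17 fell and none rose, 4 of 7 Hist and 5 of 10 variant genes, beside 39.7% called and 20.4% called lower among 13643 genes. The same 2 passed both thresholds there, as did 8.74% of all genes. The split of calls over all genes depended on scaling: against HMD 3118 were higher and 3489 lower, but 4496 and 1974 as TPM (each library scaled to the same sum of length-corrected values), and against Con 2645 and 2777, but 3980 and 1432 as TPM. Under TPM the median over all genes went from -0.03 to 0.16 and from -0.04 to 0.17 on the log2 scale, and 5 histone genes were then called in each comparison, all lower. Both comparisons use the same Bet+HMD libraries and are not independent. Some Hist genes passed the filter through 1 group alone, Hist1h4k through Bet+HMD and, against Con, Hist1h4i through Con. With only genes that reached 1 FPKM in both groups, a restriction made after the data were seen, 7 of 15 fell against HMD (3 of 5 Hist genes) and 8 of 15 against Con (3 of 5 Hist genes).

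Among the core histones of the Hist class, 2 of the 3 H2B genes tested fell. Hist3h2ba (chr11:58948920-58949533, plus strand, GRCm38) stood at 23.0, 19.1 and 23.0 FPKM in Con, at 19.2, 19.3 and 21.4 in HMD and at 8.91, 8.56 and 6.08 in Bet+HMD. All 3 betaine samples were below all others. The log2 fold change was -1.26 against HMD (SE 0.135, adjusted p = 0.000424) and -1.37 against Con (SE 0.151, adjusted p = 0.000929), the means being 0.393 and 0.362 of those groups. Hist1h2bc (chr13:23684199-23692908, plus strand) was measured at 15.5, 21.5 and 20.2 FPKM in Con, 15.7, 17.0 and 17.6 in HMD and 9.71, 10.5 and 7.60 in Bet+HMD, again without overlap. It fell by 0.80 on the log2 scale against HMD (SE 0.116, adjusted p = 0.00145) and by 0.97 against Con (SE 0.157, adjusted p = 0.00380).

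The third H2B gene did not pass. Hist2h2be was at 4.03, 4.17 and 4.13 FPKM in Con, 3.19, 3.94 and 3.05 in HMD and 3.05, 3.45 and 3.55 in Bet+HMD. The betaine and diet samples overlapped, with a log2 fold change of -0.01 (95% confidence interval -0.26 to 0.24) against HMD. Against Con the value was -0.23 with adjusted p = 0.0638, although the samples did not overlap. The interval against HMD excludes a change of the size measured for Hist3h2ba or Hist1h2bc. Hist1h2bg, another H2B gene whose mean of 0.943 FPKM left it out of the test, was at 0.537, 0.799 and 1.80 FPKM in Con, 0.931, 1.06 and 0.766 in HMD and 1.12, 0.549 and 0.929 in Bet+HMD, from 6 to 19 reads per library, and the groups overlapped.

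Hist1h1c, the gene of linker histone H1.2 (chr13:23738808-23740367, plus strand), stood at 13.6, 19.9 and 16.2 FPKM in Con, 14.3, 15.4 and 12.3 in HMD and 6.57, 5.22 and 5.34 in Bet+HMD. The betaine samples were below all others. It fell by 1.16 on the log2 scale against HMD (SE 0.114, adjusted p = 0.000311) and by 1.38 against Con (SE 0.149, adjusted p = 0.000866).

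The H2A and H4 genes of the Hist class gave no uniform picture. Hist3h2a, the neighbour of Hist3h2ba in the Hist3 cluster, stood at 1.93 to 5.83 FPKM in Con, 2.01 to 3.92 in HMD and 2.95 to 3.91 in Bet+HMD. The groups overlapped, and its log2 fold change was 0.14 (-0.30 to 0.58) against HMD and -0.06 (-0.75 to 0.63) against Con. Hist1h4i fell against Con, by 0.83 on the log2 scale (SE 0.269, adjusted p = 0.0472); it was at 1.83, 1.53 and 1.61 FPKM in Con and at 0.238, 1.32 and 0.158 in Bet+HMD, from as few as 2 reads. It entered the test through Con, where it is high, so that its fall is partly set by the filter. This call did not hold without Bet+HMD replicate 1 (adjusted p = 0.141), Bet+HMD replicate 3 (0.141), Con replicate 2 (0.0823) or Con replicate 3 (0.0788), nor under 5 of 10 other settings. Hist1h4k, with 0 to 14 reads per library and most of its windows shared with other genes, gave 0.44 (adjusted p = 0.412) and 0.74 (adjusted p = 0.133).

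Hist2h4, an H4 gene whose mean of 0.636 FPKM left it out of the test, was the one histone gene called higher after betaine when no filter on low values was applied. It was picked out after its values were seen. Its level was 0.678, 0.114 and 0.395 FPKM in Con, 0.247, 0.320 and 0.254 in HMD and 1.31, 1.21 and 1.20 in Bet+HMD, from 3 to 20 reads per Con library, 7 to 8 per HMD library and 34 to 37 per Bet+HMD library. The betaine samples lay above all others. In the fit without a filter the log2 fold change was 0.81 against HMD (adjusted p = 0.00265 by limma) and 0.70 against Con (adjusted p = 0.0345). None of its windows is shared with another gene.

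Of the genes for H3.3, H3f3b fell and H3f3a did not pass. H3f3b (chr11:116021912-116027962, minus strand) was at 56.2, 60.3 and 68.2 FPKM in Con, 60.4, 63.9 and 68.2 in HMD and 38.9, 37.8 and 35.6 in Bet+HMD. The betaine samples were below all others, with a fall of 0.76 on the log2 scale against HMD (SE 0.0743, adjusted p = 0.000308) and of 0.70 against Con (SE 0.0978, adjusted p = 0.00218). H3f3a, which encodes the same protein, was at 12.4, 14.9 and 12.0 FPKM in Bet+HMD, within the range of both other groups, and gave 0.34 (-0.29 to 0.97) against HMD and -0.18 (-0.66 to 0.30) against Con. Without HMD replicate 3 the value of H3f3a against HMD was 0.64 with adjusted p = 0.0257. An antisense gene, H3f3aos, overlaps H3f3a, and whether counting used the strand is not stated.

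The H2A variants fell in part. H2afv, the second H2A.Z gene, was at 15.2, 19.2 and 16.1 FPKM in Con, 15.5, 13.9 and 15.1 in HMD and 11.9, 10.01 and 9.32 in Bet+HMD. All betaine samples were lowest, and it fell by 0.48 against HMD (adjusted p = 0.00700) and by 0.64 against Con (adjusted p = 0.00728). H2afz, the first H2A.Z gene, was at 28.1, 33.7 and 31.2 FPKM in HMD and 28.3, 28.5 and 22.7 in Bet+HMD, which overlapped, and gave -0.22 (-0.48 to 0.04); against Con the samples did not overlap and the value was -0.42 with adjusted p = 0.0866.

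H2afx encodes H2A.X, which is phosphorylated around DNA breaks, and its mRNA is known in both a stem-loop and a polyadenylated form; its annotated transcript runs on for 822 bases after the stem-loop. It was at 17.3, 13.1 and 13.6 FPKM in Con, 13.3, 12.5 and 18.9 in HMD and 9.48, 10.9 and 9.46 in Bet+HMD. The betaine samples were lowest, with a fall of 0.52 against HMD (adjusted p = 0.0247) and of 0.51 against Con (adjusted p = 0.0172). Without Bet+HMD replicate 1 the adjusted p was 0.0789 and 0.0690, and without replicate 3 it was 0.0788 and 0.0697.

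H2afj (H2A.J) was at 9.03, 9.37 and 16.7 FPKM in Con and at 6.32, 6.27 and 5.90 in Bet+HMD, and fell by 0.78 on the log2 scale (adjusted p = 0.0277). Leaving out any 1 of the betaine samples raised its adjusted p to 0.0749 to 0.0868. Against HMD, at 6.29 to 9.57 FPKM, its value was -0.33 with adjusted p = 0.0822, and 0.00824 without HMD replicate 1; whether the 2 differences differ was not tested. The macroH2A genes H2afy and H2afy2, whose proteins carry a large extra domain and mark silent chromatin, gave -0.20 (-0.43 to 0.03) and -0.07 (-0.39 to 0.24) against HMD. Their samples overlapped in both comparisons, at 6.71 to 7.32 FPKM and 4.65 to 6.52 FPKM in Bet+HMD, although without HMD replicate 1 H2afy passed with adjusted p = 0.0477 and without Con replicate 2 with 0.0279.

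The linker variants differed between samples. H1f0 was at 40.8, 44.8 and 65.7 FPKM in Con, 41.2, 37.2 and 36.2 in HMD and 39.2, 36.0 and 31.3 in Bet+HMD, and its log2 fold change against HMD was -0.11 (-0.34 to 0.13). Against Con the samples did not overlap, and the value of -0.47 had adjusted p = 0.0851. H1fx was at 25.4, 12.9 and 13.1 FPKM in Con, 17.1, 12.0 and 29.6 in HMD and 10.6, 8.22 and 7.79 in Bet+HMD, so that 1 sample of each of the first 2 groups stood apart from its replicates. It fell by 0.98 against HMD (SE 0.289, adjusted p = 0.0270) and by 0.82 against Con (adjusted p = 0.0443). The first call was lost without HMD replicate 1 (adjusted p = 0.0616), Bet+HMD replicate 2 (0.0797) or Bet+HMD replicate 3 (0.0844), and the second without any 1 of the betaine samples (0.0663 to 0.132).

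In both betaine comparisons 5 calls held under each of 11 other settings and without any 1 sample: Hist3h2ba, Hist1h1c, Hist1h2bc, H3f3b and H2afv. The share of all genes whose calls held in the same way was not counted, so this number is not a result about histone genes. Samples did not overlap between Bet+HMD and HMD for 7 of 16 histone genes, all lower after betaine; of all genes tested 60.1% did not overlap, 31.8% being lower. Between Bet+HMD and Con it was 12 of 17, again all lower, beside 55.1% and 29.0%. The median log2 fold change against HMD was -0.41 for the 6 Hist genes and -0.28 for the 10 variant genes, beside -0.03 for all genes. Against Con it was -0.83 and -0.49, beside -0.04. The medians of the Hist class rest on few genes: with the 5 that reached 1 FPKM in both groups they were -0.80 and -0.97, without HMD replicate 1 the first was -0.85, and without Con replicate 1 the second was -0.28.

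**Figure D3:**
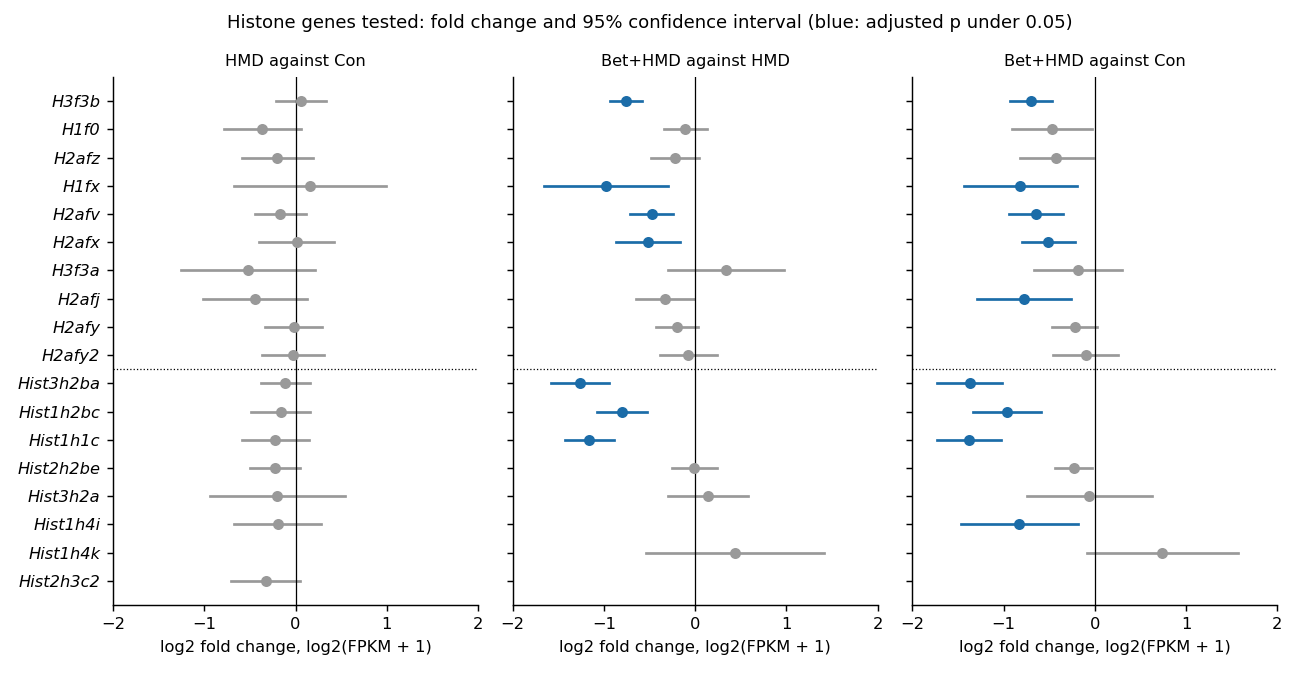
Log2 fold change on the log2(FPKM + 1) scale (horizontal axis) with its 95% confidence interval for each histone gene tested, variant genes above the dotted line and Hist genes below, in the 3 comparisons. Blue marks an adjusted p under 0.05: none for HMD against Con, 7 for Bet+HMD against HMD and 9 for Bet+HMD against Con, all to the left of 0.

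Summed over each class, replication-dependent mRNA was lower by a larger factor than variant mRNA. The 67 Hist genes summed to 69.7, 76.3 and 84.9 FPKM in Con, 62.8, 70.8 and 68.3 in HMD and 41.6, 41.6 and 34.0 in Bet+HMD. The 15 variant genes summed to 225, 216 and 274 FPKM in Con, 206, 203 and 239 in HMD and 170, 167 and 146 in Bet+HMD. The betaine samples were lowest in both sums. The ratio of the means of Bet+HMD to HMD was 0.580 for Hist and 0.745 for variant genes, and that to Con 0.507 and 0.675. As TPM these ratios were 0.666 and 0.855 to HMD and 0.591 and 0.784 to Con. The Hist share of all histone FPKM was 24.5% ± 1.42 in Con (SD, n = 3), 23.8% ± 1.88 in HMD and 19.5% ± 0.524 in Bet+HMD. The expressed Hist genes are also shorter than the variant ones, with a median of 1156 bases beside 1943, and gene length is taken up below. No test was made on these sums, as the genes were chosen with results of these data known.

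The lower Hist sum came from the few expressed genes. The 60 Hist genes below 1 FPKM together gave 9.41 ± 2.87 FPKM in Con, 7.67 ± 2.23 in HMD and 7.28 ± 0.779 in Bet+HMD, with overlapping samples. In the H1 family, where Hist1h1c and the variant H1fx fell and H1f0 did not pass, the variant genes took 79.7% ± 4.79 of FPKM in Con, 79.8% ± 3.83 in HMD and 87.8% ± 0.644 in Bet+HMD. In the H2A family the variant share was 94.7% ± 1.29, 95.9% ± 1.11 and 93.2% ± 1.19.

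**Figure D4:**
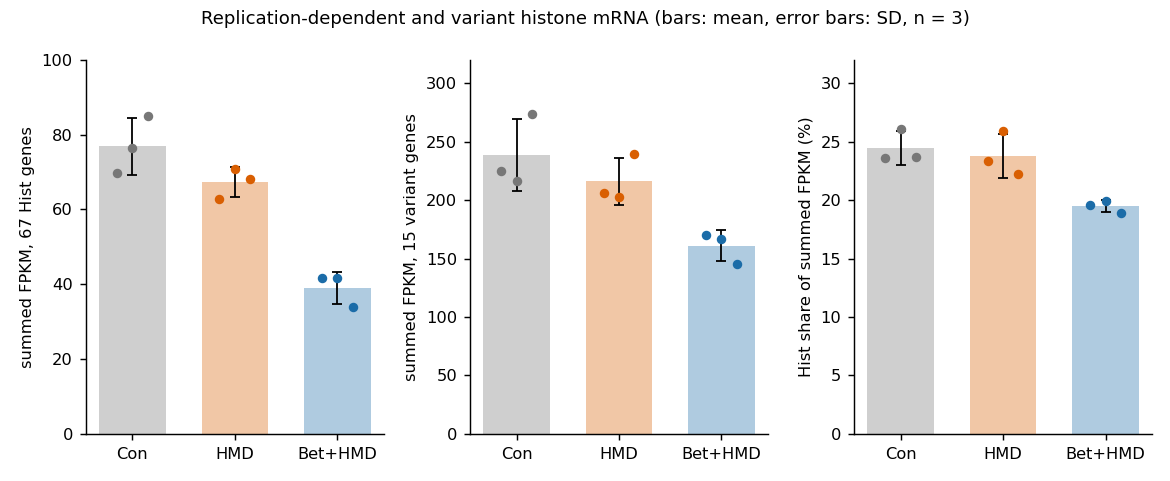
Summed FPKM of the 67 Hist genes (left) and of the 15 variant genes (middle), and the Hist share of the total in percent (right), with points for samples, bars for the mean and error bars for the SD of 3 samples. The Bet+HMD points lie below those of Con and HMD in all 3 panels.

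Gene length moved with these differences. Among protein-coding genes tested, the median log2 fold change of Bet+HMD against HMD was -0.35 for genes under 1000 bases and -0.35 for those of 1000 to 2000 bases, then -0.15 up to 4000 bases and 0.01 above. Genes called lower were 45.2% of those of 1000 to 2000 bases and 19.6% of those of 4000 bases or more. The expressed histone genes are short, with a median of 1776 bases beside 4529 for all protein-coding genes tested. Set against the median of genes of its own length class, Hist3h2ba (614 bases) was still lower by 0.91 on the log2 scale, Hist1h1c (1560 bases) by 0.81, H1fx by 0.63, H3f3b (2976 bases) by 0.61 and Hist1h2bc (1156 bases) by 0.45, whereas H2afx and H2afv were lower by 0.17 and 0.13. Of the 16 histone genes tested against HMD, 8 lay below the median of their length class, and the median offset over all 16 was -0.05. Of the 17 tested against Con, 13 did, with a median offset of -0.25 over all 17. Ribosomal RNA took 0.0632% ± 0.0437 of reads in Con, 0.0750% ± 0.0303 in HMD and 0.00448% ± 0.000749 in Bet+HMD, and lincRNA 0.515%, 0.508% and 1.42%. Small RNA classes were higher in Bet+HMD without overlap, such as snRNA (0.00129%, 0.00161% and 0.00489%) and snoRNA (0.00250%, 0.00289% and 0.00618%). The part of gene length and of library makeup in the histone values was not tested.

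**Figure D5:**
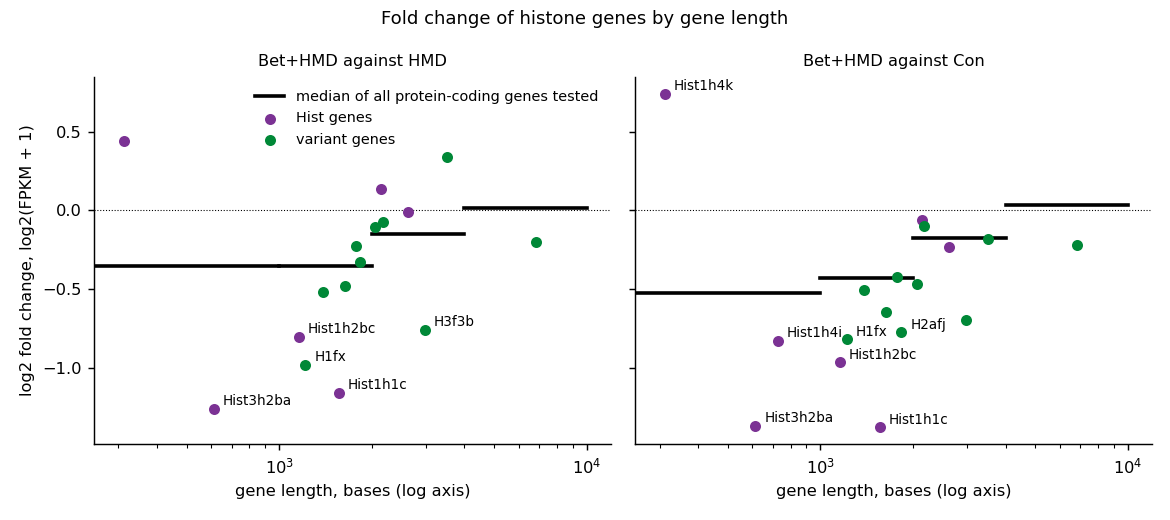
Log2 fold change of each histone gene tested (Hist purple, variant green) against gene length in bases on a log axis, for Bet+HMD against HMD (left) and against Con (right), with the median of all protein-coding genes tested in each length class as black lines. The black lines are below 0 for short genes, and Hist3h2ba, Hist1h1c, Hist1h2bc and H3f3b lie below them.

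Genes that make histone mRNA were looked at beside the histones. Of 12 factors of histone gene transcription and 3′ end processing, 11 were tested, and against HMD 3 rose and 3 fell, with a median of 0.00, where 22.8% of all genes were called higher and 25.5% lower; the same counts were found against Con. Lsm11, a protein of the U7 particle that guides cleavage after the stem-loop, fell from 7.65 to 11.01 FPKM in HMD to 3.88 to 4.13 in Bet+HMD, a log2 fold change of -1.05 (adjusted p = 0.000599). Its partner Lsm10 gave -0.54 (adjusted p = 0.0149) and Cpsf2 -0.29 (adjusted p = 0.0109). Srrt, which links the cap-binding complex to 3′ end formation, rose by 1.70 (adjusted p = 3.10e-05), Cstf2 by 0.97 (adjusted p = 0.000528) and Cpsf3, the nuclease that cuts the mRNA, by 0.22 (adjusted p = 0.0267). Slbp, at 2.61 to 3.72 FPKM in all 9 libraries, overlapped between the groups (-0.15, adjusted p = 0.232), as did Npat, the activator of Hist genes (0.09, adjusted p = 0.422). The calls of Srrt, Cstf2 and Lsm11 held in both comparisons under the 11 other settings and without any 1 sample. Against HMD, that of Lsm10 was lost without Bet+HMD replicate 2 or 3 (adjusted p up to 0.0554), that of Cpsf2 without Bet+HMD replicate 2 (0.0574) and that of Cpsf3 without HMD replicate 1 or any 1 betaine sample (up to 0.104). As TPM, 5 rose and 2 fell against HMD.

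Chaperones that carry histones were looked at next. Of 25, 21 were tested, and 8 rose and 5 fell against HMD (median 0.12), where 48.3% of all genes were called, while 7 rose and 3 fell against Con (median 0.06), where 39.7% were. Of the complex that deposits H3.3, Hira itself fell, from 2.40 to 3.35 FPKM in HMD to 1.33 to 1.68 in Bet+HMD, a log2 fold change of -0.61 (adjusted p = 0.00681). Its partners Ubn2 and Cabin1 rose by 1.04 (adjusted p = 0.000374) and 0.67 (adjusted p = 0.000975). Asf1a, which hands H3 and H4 to this complex, gave -0.45 (adjusted p = 0.0179), and Anp32e, which removes H2A.Z, -0.38 (adjusted p = 0.0167). Vps72, which binds H2A.Z, rose by 0.70 (adjusted p = 0.0237). Against Con, Hjurp, the chaperone of the centromeric H3 variant Cenpa, rose by 0.87 (adjusted p = 0.000651) and Nap1l4 gave -0.37 (adjusted p = 0.0229). Cenpa itself stayed at 0.182 to 0.491 FPKM in all libraries and was not tested. The calls of Hira, Ubn2 and Cabin1 against HMD held in all other settings and without any 1 sample, whereas those of Asf1a, Anp32e and Vps72 were lost without Bet+HMD replicate 1 and without 1 to 3 other libraries (adjusted p up to 0.0653, 0.0653 and 0.0772). The split depended on scaling: as TPM, 13 rose and 1 fell against HMD.

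Markers of dividing cells were low. Of 18 genes of proliferation and S phase, 6 had a mean of at least 1 FPKM over the 9 samples, Mki67 was at 0.252 to 0.481 FPKM and Top2a at 0.0830 to 0.282 FPKM. Of the 6 tested against HMD, Pcna, the clamp of DNA polymerase, was the single gene called, at 16.7 to 17.8 FPKM in HMD and 11.03 to 11.9 in Bet+HMD (-0.53, adjusted p = 0.000845). Against Con, Pcna gave -0.52 (adjusted p = 0.0108, and 0.0503 without Bet+HMD replicate 3). E2f1 gave 0.33 (adjusted p = 0.0465), a call lost without any 1 of the 6 samples (up to 0.155). Marker sums of other cell types differed as well: of 11 lists, 7 were lower in Bet+HMD than in HMD without overlap and none higher, and 5 were lower than in Con. None of the markers was at 0 in all libraries. The 5 blood cell markers summed to 149 to 233 FPKM in HMD and 72.2 to 122 in Bet+HMD, with 2 of 5 called lower. The 5 astrocyte markers summed to 227 to 248 and to 195 to 196 FPKM, again with 2 of 5 called lower, where 25.5% of all genes were. Those of immature neurons went from 40.9 to 46.0 FPKM in HMD to 22.6 to 24.2 in Bet+HMD, those of oligodendrocyte precursors from 58.4 to 79.4 to 47.4 to 51.5, those of endothelium from 50.04 to 60.4 to 45.6 to 47.4 and those of microglia from 49.5 to 56.0 to 46.6 to 47.9. In the list of immature neurons 1 gene was called higher and 1 lower, and in that of oligodendrocyte precursors 2 and 2. Endothelium and microglia each had 2 called lower and none higher. Single members went both ways: Dcx had a mean of 1.94 FPKM in HMD and 4.37 in Bet+HMD, and Calb2 27.8 and 9.51. The remaining one of the 7 lists was the thalamus sum given above. The sum of 6 choroid plexus markers ranged from 772 to 3217 FPKM over all libraries, with none called. The part of cell makeup in the histone values was not tested.

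The genes whose level was most like the summed Hist FPKM over the 9 samples were Cyb5r1, a reductase (Pearson r = 0.989), Nme1, a nucleoside diphosphate kinase (0.988), Znhit3 (0.986), Itpa (0.985) and Ldha, a lactate dehydrogenase (0.984), out of 11898 protein-coding genes with a mean of at least 1 FPKM. The 9 points share 3 groups and the betaine libraries are low in each: Ldha stood at 63.8 to 79.8 FPKM in Con, 56.8 to 67.9 in HMD and 37.1 to 43.0 in Bet+HMD.

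Promoters are shown for 2 Hist and 2 variant genes with a high level, 3 that fell in both betaine comparisons and H2afz, which did not pass. The sequences are from RefSeq on GRCm38.p6 and span 250 bases before to 50 bases after the start; 76 of the 82 genes had an entry. Capitals mark CCAAT and TATAAA and, for the other strand, ATTGG and TTTATA; no motifs overlap in these sequences. They lie, in the order printed, at chr11:58948661-58948960 (plus strand), chr13:23738557-23738856 (plus strand), chr11:116024455-116024754 (minus strand) and chr3:137864237-137864536 (plus strand).
Hist3h2ba: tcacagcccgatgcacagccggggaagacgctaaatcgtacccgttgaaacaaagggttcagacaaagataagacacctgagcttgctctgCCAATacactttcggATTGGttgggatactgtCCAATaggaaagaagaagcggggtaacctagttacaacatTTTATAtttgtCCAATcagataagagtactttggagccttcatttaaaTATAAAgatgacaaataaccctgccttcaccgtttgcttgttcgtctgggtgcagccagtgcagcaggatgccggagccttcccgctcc
Hist1h1c: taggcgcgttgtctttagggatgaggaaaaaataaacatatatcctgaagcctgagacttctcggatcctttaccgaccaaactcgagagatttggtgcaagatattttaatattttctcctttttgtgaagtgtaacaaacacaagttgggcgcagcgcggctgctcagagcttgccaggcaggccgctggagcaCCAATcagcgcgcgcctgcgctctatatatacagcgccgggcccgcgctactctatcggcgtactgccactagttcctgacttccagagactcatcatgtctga
H3f3b: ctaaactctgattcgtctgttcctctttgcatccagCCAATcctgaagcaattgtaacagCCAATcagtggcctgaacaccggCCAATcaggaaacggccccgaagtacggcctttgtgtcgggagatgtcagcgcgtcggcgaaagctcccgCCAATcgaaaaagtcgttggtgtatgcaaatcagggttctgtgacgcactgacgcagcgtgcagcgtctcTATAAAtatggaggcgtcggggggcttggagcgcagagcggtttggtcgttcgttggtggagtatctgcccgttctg
H2afz: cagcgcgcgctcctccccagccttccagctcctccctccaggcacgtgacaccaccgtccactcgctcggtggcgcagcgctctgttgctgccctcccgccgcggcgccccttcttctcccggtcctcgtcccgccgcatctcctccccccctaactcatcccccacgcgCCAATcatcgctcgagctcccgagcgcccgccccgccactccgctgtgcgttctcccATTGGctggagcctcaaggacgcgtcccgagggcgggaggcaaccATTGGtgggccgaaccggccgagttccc
The count of CCAAT on either strand was 4 in Hist3h2ba, 1 in Hist1h1c, 4 in H3f3b and 3 in H2afz, and that of TATAAA 2, 0, 1 and 0, so the genes that fell did not share a count. CCAAT on either strand occurred in 54 of 63 Hist promoters (85.7%), in 10 of 14 variant promoters (71.4%) and in 37.4% of the 32851 promoters of the table. Within the Hist class it was in every promoter of the H1, H2A, H2B and H3 genes and in 3 of 12 of the H4 genes. Promoters of some neighbouring Hist genes overlap, such as those of Hist1h2ak and Hist1h2bn, so the same bases were counted for both and these promoters are not independent. TATAAA on either strand occurred in 55.6% of Hist promoters and in 13.6% of all, and of the variant genes H3f3b alone had it. These letters describe the sequence and do not show that a factor binds there.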

How the data were processed

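Hippocampal RNA was sequenced in 9 libraries. Per the submitters' processing notes the authors aligned reads with HISAT2 2.1.0 to mm10 and counted them per gene with featureCounts 1.5.0-p3; the methods of the study name other versions. The authors deposited FPKM per gene in 2 tables, together with gene lengths in bases (used as another unit, unchanged); FPKM of Con, HMD and Bet+HMD come from the later one. Columns read as Con carry the prefix COL, a match that is inferred. Multiplying FPKM by gene length and library size gave whole reads (within 0.05) for 100% of values, so depth was known; 3 reads were at most 1.87e-05% of a library. The floor of 3 reads covers counting error. Whether each library is 1 animal or a pool is not stated, so p-values measure the spread between these samples.

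The values are not counts, so limma (3.58.1, R 4.3.3; empirical Bayes with trend) took log2(FPKM + 1) of both groups under comparison, for genes with a mean of at least 1 FPKM; p-values were two-sided, with Benjamini-Hochberg adjustment across every gene that was tested; this scale understates changes of low genes. The fit was tested on simulated data. SE is limma's, SD is over 3 samples. The members and gene lists were chosen with earlier results of these data known. Genes named were the variant genes with a mean of at least 1 FPKM, the 8 highest Hist genes, the called Hist genes with the largest changes and no overlap (the 3 of smallest p where none was called), up to 3 called genes per direction of each other list, and the 5 genes most like the Hist sum. The main fit did not pair samples by replicate number. Alternatives were another pseudocount (0.1), no filter or 5 FPKM, TPM, quantile normalization, median centring, no trend, a fit of all 3 groups together, a fit on protein-coding genes, voom on the recovered reads, a replicate block, the earlier table, and leaving out each sample.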

Additional observations from a re-analysis of the deposited data

How the results depend on the processing

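Scaling and the filter moved the values most. As TPM the histone calls against Con came to 5, and H1fx, H2afx, H2afj and Hist1h4i were lost (adjusted p 0.0788 to 0.115). The median of Hist genes against HMD was -0.0088 without a filter (43 genes), -1.16 at 5 FPKM (3 genes) and -0.24 as TPM. Against Con it was -0.032 without a filter (46 genes), -1.37 at 5 FPKM (3 genes), -1.03 with a pseudocount of 0.1 and -1.07 by voom, and that of variant genes -0.29 as TPM and -0.30 by quantile normalization. At 5 FPKM 4166 and 3260 genes were called against HMD and Con, and voom on the recovered reads (100% of values whole) called 7093 and 5881. For HMD against Con a fit of all 3 groups called 10 genes and voom 0. In reads, not per length, the Hist share was 14.5% in Con, 13.5% in HMD and 11.7% in Bet+HMD.

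Against HMD, signs changed for H1f0 (0.0893 as TPM, 0.13 by quantile normalization), H2afy2 (0.11 as TPM) and Hist2h2be (0.18 as TPM, 0.0134 by median centring), and against Con for H3f3a (0.0291), H2afy2 (0.10) and Hist3h2a (0.15), all as TPM. None of these was called. The cause was not tested.

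Leaving out 1 sample in turn gave 0 to 2 genes called for HMD against Con (2 without Con replicate 2, 1 without HMD replicate 3), 4782 to 6990 against HMD and 3302 to 6269 against Con, the lowest without Bet+HMD replicate 3 (3347 without replicate 2, 3424 without replicate 1). Histone calls were 5 to 8 against HMD and 5 to 9 against Con (5 without Bet+HMD replicate 1 or 3), and Hist medians -0.85 to -0.39 and -0.86 to -0.28. Signs changed for H2afy2 (-0.16 to 0.0496), Hist2h2be (-0.0641 to 0.0784) and Hist3h2a (-0.0689 to 0.28) against HMD, and for H2afy2 (-0.21 to 0.0255), H3f3a (-0.40 to 0.0026) and Hist3h2a (-0.39 to 0.22) against Con. For HMD against Con they changed for H1fx (-0.17 to 0.47), H2afx (-0.16 to 0.13), H2afy (-0.11 to 0.0593), H2afy2 (-0.14 to 0.065), H3f3b (-0.0012 to 0.14), Hist1h4i (-0.35 to 0.0233) and Hist3h2a (-0.53 to 0.0826).

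Deviations of samples with the same replicate number correlated at -0.0581, 0.337 and 0.320 for HMD with Con. For Bet+HMD with HMD and with Con the mean was -0.0786 and -0.105. Samples of different number were not compared in this way, so whether the numbers pair the samples was not settled. With the replicate block 0, 5615 and 3924 genes and 0, 7 and 8 histone genes were called in the 3 comparisons (against Con, Hist1h4i was lost, adjusted p = 0.0623).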

Other observations

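Histone-named genes outside the protein-coding class were also listed: 9, of which 3 had a mean of at least 1 FPKM, all processed pseudogenes with H3f3 names. They were picked out after their values were seen. H3f3c (chr2:119665626-119666036, minus strand, GRCm38) was at 2.29, 6.15 and 2.56 FPKM in Con, 14.7, 21.3 and 22.3 in HMD and 0.7003, 0.413 and 0.699 in Bet+HMD, with no overlap between any of the groups. Its log2 fold change was 2.202 for HMD against Con (adjusted p = 0.230 by limma) and -3.66 for Bet+HMD against HMD (adjusted p = 2.21e-05). For HMD against Con the adjusted p by limma was 0.0401 with all 3 groups in one fit and 0.0312 to 0.953 without 1 sample in turn. It did not pass with the earlier deposited values (0.218), by voom (0.227) or with the replicate block (0.394). H3f3a-ps2 had the same order of means, with overlap between Con and Bet+HMD, at 0.538, 1.35 and 0.569 FPKM in Con, 2.38, 4.13 and 4.90 in HMD and 0.560, 0.275 and 0.140 in Bet+HMD.

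These pseudogenes share sequence with H3f3a: 48.5% of the 150-base windows of H3f3c and 43.5% of those of H3f3a-ps2 also occur in other genes, among them H3f3a and each other. In the same HMD libraries H3f3a was at 9.84, 6.44 and 15.9 FPKM. H3f3a-ps1 shares no window and stood at 2.43, 2.41 and 5.70 FPKM in Con, 4.07, 2.23 and 2.17 in HMD and 0.562, 0.138 and 0.140 in Bet+HMD, where it was called lower than in HMD (-1.56, adjusted p = 0.00150). How reads were divided between H3f3a and its copies is not stated, and its part in the values of H3f3a was not tested.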
